A study of Mus musculus with 24 samples.

Results

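The genes followed here belong to the ABCC family, most of whose members are ATP-driven export pumps, together with the related pump Abcg2: Abcc1, Abcc2, Abcc3, Abcc4, Abcc5, Abcc6, Abcc9, Abcc10, Abcc12 and Abcg2. They were listed by name, but earlier results of these data were known when they were chosen. The counts of called genes below are therefore a description and not a test of the list. Every probe set that the platform annotation assigns to such a gene alone was used. All 10 genes were found, of 18193 genes with a probe set of their own, and they were measured by 24 of the 45037 probe sets tested. Abcc5 had 10 of these probe sets, Abcc9 had 3, Abcc1, Abcc10 and Abcc12 had 2 each, and the other genes had 1.

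Liver RNA was hybridised to 24 Affymetrix arrays in 3 groups, named for the siRNA that the mice received. The siKeap1-1 and siKeap1-2 groups were given chemically modified siRNAs against Keap1, and the siControl group was given a modified scrambled siRNA (n = 8 arrays per group, 1 mouse each). Male C57BL6/J mice, 8 weeks old at the start, were used in all groups. All of them, siControl mice included, ate a high-fat diet with 6% sucrose in the drinking water, and all were injected through the tail vein once a week at 1 mg per kg for 7 weeks. A lipid nanoparticle carrier delivers the siRNA chiefly into hepatocytes, and how far the other cells of the liver were silenced was not measured here. Each group held both fed and fasted mice by the study's methods, but the labels do not say which, and the feeding state is part of the spread within groups here. In pieces of whole liver, fewer cells of a type and less RNA per cell cannot be told apart.

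Keap1 is the sensor that holds the transcription factor Nrf2 (gene Nfe2l2) in the cytoplasm and hands it to a ubiquitin ligase. When Keap1 is short, Nrf2 enters the nucleus and binds antioxidant response elements in front of genes for detoxification. Hepatocytes conjugate foreign and waste compounds to glutathione, glucuronic acid or sulfate, and ABC pumps then export the conjugates, either through the canalicular membrane into bile or through the basolateral membrane into blood. Several of these pump genes are known Nrf2 targets in liver.

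Windows at annotated transcription starts of the genes whose signals moved most, and of the bile pump Abcc2, are shown because the core of the antioxidant response element (TGACNNNGC, searched on both strands) can be looked for in them. The sequences are from RefSeq on build GRCm38.p6, run 5′ to 3′ on the strand of the gene, and cover 250 bases before to 50 bases after an annotated transcription start; capitals mark each match. Both Abcc4 windows held a match, the first on the strand of the gene at base -23 and the second on the opposite strand, so that it is printed as its reverse complement, at base -25 from the start. Abcc2 held a match on the strand of the gene at base -98, and the Abcc12 window held none. The Abcc12 window and both Abcc4 windows lie inside the gene's annotated span, given with each gene below, and the outermost 5′ end of either gene was not searched.
Abcc4, chr14:118676882-118677181, minus strand: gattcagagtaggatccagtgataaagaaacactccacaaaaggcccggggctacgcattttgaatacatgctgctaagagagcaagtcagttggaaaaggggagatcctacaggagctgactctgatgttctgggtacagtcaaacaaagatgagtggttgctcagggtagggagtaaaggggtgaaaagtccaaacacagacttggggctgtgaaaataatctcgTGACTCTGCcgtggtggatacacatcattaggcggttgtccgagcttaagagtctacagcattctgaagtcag
Abcc4, chr14:118706170-118706469, minus strand: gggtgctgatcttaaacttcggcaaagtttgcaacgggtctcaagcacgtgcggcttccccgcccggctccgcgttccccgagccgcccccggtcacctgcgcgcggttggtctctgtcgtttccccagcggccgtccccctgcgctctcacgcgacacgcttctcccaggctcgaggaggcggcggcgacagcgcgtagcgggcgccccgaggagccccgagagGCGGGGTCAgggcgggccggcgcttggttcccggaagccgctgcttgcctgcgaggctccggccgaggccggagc
Abcc2, chr19:43782058-43782357, plus strand: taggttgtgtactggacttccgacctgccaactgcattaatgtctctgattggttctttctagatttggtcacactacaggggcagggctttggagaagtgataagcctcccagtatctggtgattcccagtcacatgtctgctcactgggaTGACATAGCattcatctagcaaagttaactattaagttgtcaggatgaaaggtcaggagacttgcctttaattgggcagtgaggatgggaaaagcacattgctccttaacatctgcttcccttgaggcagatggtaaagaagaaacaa
Abcc12, chr8:86566541-86566840, minus strand: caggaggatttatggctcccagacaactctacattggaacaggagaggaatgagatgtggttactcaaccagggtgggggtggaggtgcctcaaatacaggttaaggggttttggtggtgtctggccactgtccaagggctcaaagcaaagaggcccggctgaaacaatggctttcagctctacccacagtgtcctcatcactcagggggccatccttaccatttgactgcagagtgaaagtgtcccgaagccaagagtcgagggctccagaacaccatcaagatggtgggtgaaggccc

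Promoters were matched for 7 of the 10 genes, and Abcc1, Abcc3 and Abcc6 were not among them. Of the 11 promoters of these 7 genes, 5 held the motif, and they belonged to Abcc2, Abcc4 and Abcc10. In the comparisons with siControl below, Abcc2 and Abcc4 were called higher with both siRNAs, and Abcc10 was called with neither. The windows of Abcg2 and Abcc12, which were also called higher with both siRNAs, held no match. Of all 32851 promoters of this length, 4071 (12.4%) held it, so a match is common, and it describes letters only. The genes lie on separate chromosomes except for Abcg2 and Abcc9, both on chromosome 6 (build GRCm38.p6), and Abcc1 and Abcc5, both on chromosome 16.

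The targeted gene was read first. The brighter Keap1 probe set lay between 7.21 and 7.93 in siKeap1-1 livers (median 7.47), between 8.03 and 8.59 in siKeap1-2 livers (median 8.23) and between 9.33 and 10.03 in siControl livers (median 9.57), in log2 signal units. All 8 arrays of each Keap1 siRNA were below all 8 of siControl, at differences of -2.13 (SE 0.11) and -1.36 (SE 0.11), which are signals 77.1% and 61.2% lower (exact permutation test, two-sided, p = 0.000155 for each, the smallest that 8 against 8 allows). By this probe set, Keap1 was also lower in siKeap1-1 than in siKeap1-2 livers on all 8 arrays, by -0.76 (SE 0.11, limma adjusted p = 0.0022). The other, dimmer Keap1 probe set had medians of 5.03, 5.08 and 5.32 in siKeap1-1, siKeap1-2 and siControl livers. It was lower by -0.42 with siKeap1-1 and -0.44 with siKeap1-2 (limma adjusted p = 0.0262 and 0.026). All 8 siKeap1-2 arrays but only 6 of 8 siKeap1-1 arrays lay below siControl. Between the siRNAs it differed by 0.02 (limma adjusted p = 0.838), so their difference rests on the brighter probe set.

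Arrays of a group correlated across probe sets at r of 0.9885 to 0.996, and array medians lay between 5.84 and 5.96 in log2 signal, the level against which dim probe sets are described below. A control probe set for 18S ribosomal RNA did not vary by siRNA alone. In siKeap1-1 livers it read 10.17 to 10.44 on replicates 1 to 3 and 11.17 to 11.43 on replicates 4 to 8, and in siKeap1-2 livers 10.45 to 11.12. In siControl livers it read 10.34 to 10.77 on replicates 1 to 3, but only 8.86 to 9.54 on replicates 4 to 8. Transporter calls were therefore also made with this signal as a covariate and with either set of siControl arrays alone, and the calls that this ended are named beside each gene. Its part in the results was not tested.

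Most of the transporter genes that responded were higher after Keap1 silencing. Taking each gene by its brightest probe set, 6 of the 10 genes were higher and 1 was lower in siKeap1-1 than in siControl livers (limma, Benjamini-Hochberg adjusted p under 0.05). Over the whole array 9.49% of genes were called (4.82% higher, 4.67% lower). In siKeap1-2 livers, 6 of the 10 were higher and 0 were lower by limma (7 of the 10 had an unadjusted p under 0.05, the additional one being a lower Abcc6), where 6.6% of all genes were called (2.85% higher, 3.75% lower). The 6 genes higher with either siRNA were Abcc4, Abcc12, Abcc3, Abcg2, Abcc2 and Abcc1; both comparisons share the siControl arrays. By probe set, 10 of 24 were called with siKeap1-1 (9 higher, 1 lower), where 8.99% of all probe sets were called (4.51% higher, 4.48% lower). With siKeap1-2, 8 of 24 were called, all higher, where 6.1% of all were (3.15% higher, 2.96% lower). All 8 silenced arrays stood above all 8 siControl arrays for 7 of the 24 with siKeap1-1 and 4 with siKeap1-2, where 0.844% and 0.777% of all probe sets did so. The 24 probe sets had a median log2 difference of 0.22 with siKeap1-1 and 0.17 with siKeap1-2, beside 0.02 and 0.00 over all probe sets. With the 18S signal as a covariate, 5 genes were called with siKeap1-1 and only Abcc3, Abcc4 and Abcc12 with siKeap1-2.

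**Figure D1:**
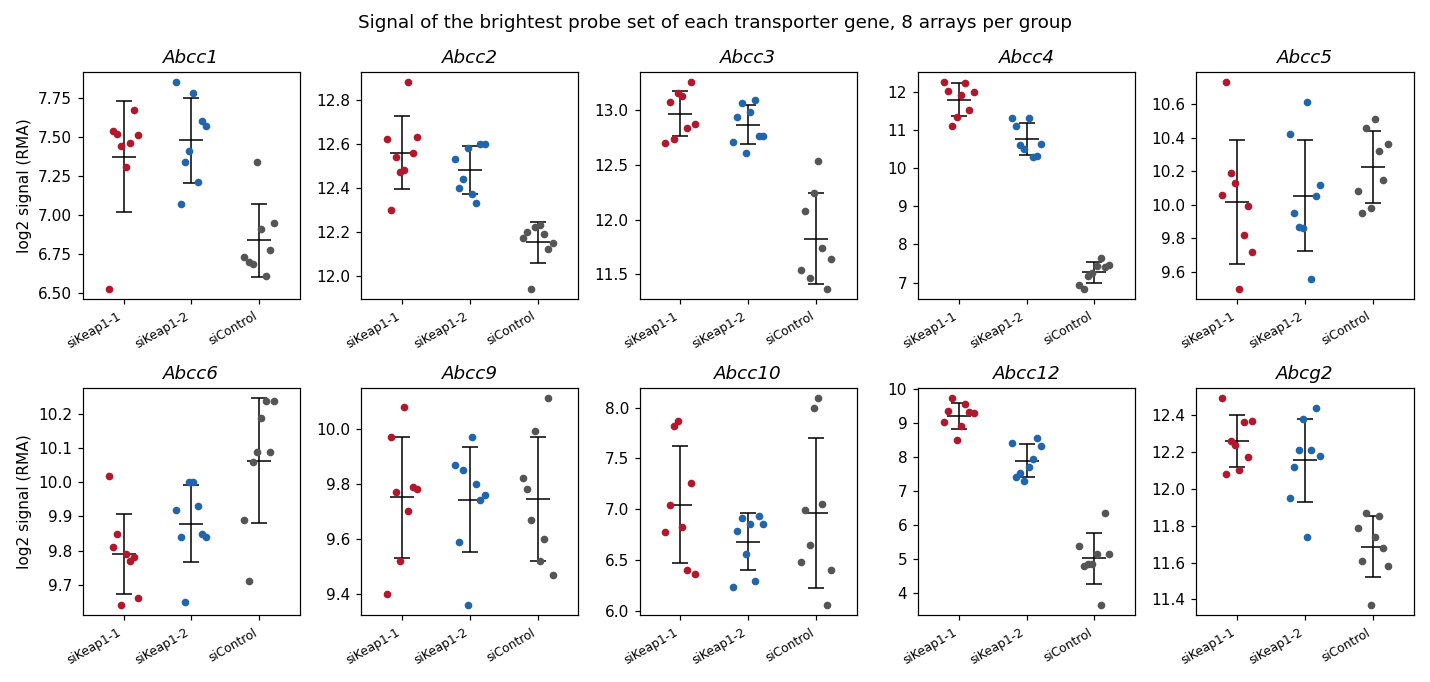
Log2 signal (vertical axis, its own scale in each panel) of the brightest probe set of each transporter gene on the 8 arrays of siKeap1-1, siKeap1-2 and siControl; points are arrays, the long bar is the mean and the whiskers are 1 SD. All siKeap1-1 and siKeap1-2 arrays lie above all siControl arrays for Abcc2, Abcc3, Abcc4 and Abcc12, while the groups of Abcc5, Abcc9 and Abcc10 overlap.

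Abcc4 gave the largest differences of the 10 genes. It encodes a basolateral pump that carries cyclic nucleotides, urate and, together with glutathione, bile acids from hepatocytes into blood, and it lies at chr14:118482692-118707856. Its only probe set (1443870_at) had a lowest, median and highest log2 signal of 11.11, 11.96 and 12.25 in siKeap1-1 livers, 10.28, 10.62 and 11.32 in siKeap1-2 livers, and 6.84, 7.33 and 7.65 in siControl livers. Both silenced groups lay wholly above siControl, with a wide gap. The difference was 4.52 (SE 0.18, 95% interval 4.16 to 4.89, a fold of 23, adjusted p = 8.43e-15 by limma) with siKeap1-1 and 3.49 (interval 3.12 to 3.86, a fold of 11.2, adjusted p = 2.59e-12) with siKeap1-2. The siControl arrays with low 18S signal, replicates 4 to 8, read 7.25 to 7.65, and the other 3 read 6.84 to 7.17. Against these 5 arrays alone the difference was 4.35 with siKeap1-1 and 3.32 with siKeap1-2, and against the other 3 alone it was 4.81 and 3.77.

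Abcc12, a member of the same family whose substrates are little known, followed Abcc4 in size (chr8:86504568-86580688). Probe set 1439985_at had a lowest, median and highest log2 signal of 8.51, 9.31 and 9.73 in siKeap1-1 livers, 7.29, 7.82 and 8.55 in siKeap1-2 livers, and 3.64, 4.99 and 6.35 in siControl livers. All arrays of both silenced groups lay above all siControl arrays. On 7 of the 8 siControl arrays it was dimmer than the median probe set of the array, and no detection call was used here, so the fold from so low a level is imprecise. The difference was 4.20 (SE 0.26, interval 3.66 to 4.74, a fold of 18.4, adjusted p = 4.12e-11) with siKeap1-1 and 2.88 (interval 2.34 to 3.42, a fold of 7.36, adjusted p = 8.21e-08) with siKeap1-2.

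The other Abcc12 probe set (1446170_at) was dim, with medians of 5.41 in siKeap1-1, 5.22 in siKeap1-2 and 4.58 in siControl livers. It was higher by 1.05 (SE 0.17, adjusted p = 0.000253) with siKeap1-1, where all 8 arrays lay above siControl. With siKeap1-2 it was higher by 0.60 (SE 0.17, adjusted p = 0.0355) and 6 of 8 arrays lay above siControl. The size with siKeap1-2 moved with the controls: it was 0.92 (adjusted p = 0.0557) against siControl replicates 1 to 3 alone and 0.41 (adjusted p = 0.19) against replicates 4 to 8 alone, neither of them called, and 1.05 with the 18S covariate, where it was called. The siKeap1-2 call was also lost with the replicate number as a block (0.60, adjusted p = 0.0526), with quantile normalization (0.56, adjusted p = 0.063), and without any of siKeap1-2 replicates 1, 3, 5, 7 and 8 or siControl replicates 1 to 5 (adjusted p = 0.0517 to 0.0708, at differences of 0.53 to 0.60). Both probe sets had the same direction and differed in size.

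Abcc3, the basolateral pump for glucuronides and bile acids, was about doubled in level by both siRNAs (chr11:94343295-94393017). Probe set 1428988_at had a lowest, median and highest log2 signal of 12.70, 12.97 and 13.25 in siKeap1-1 livers, 12.61, 12.84 and 13.09 in siKeap1-2 livers, and 11.37, 11.69 and 12.53 in siControl livers. The silenced groups overlapped each other and lay wholly above siControl, whose spread was the widest (SD 0.41, against 0.21 in siKeap1-1 and 0.18 in siKeap1-2 livers). The difference was 1.14 (SE 0.14, a fold of 2.2, adjusted p = 4.88e-06) with siKeap1-1 and 1.04 (SE 0.14, a fold of 2.05, adjusted p = 3.21e-05) with siKeap1-2. Abcc3, Abcc4 and Abcc12, each by its brightest probe set, kept both calls against siControl in every alternative run.

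Abcc3 also moved with the main axis of variation inside the groups. Each probe set was centred on its mean in each group, and the largest principal component of what was left held 16.9% over all probe sets. For the array values given here, this component was made without the transporter probe sets. The array at its upper end had an Abcc3 signal of 13.15 in siKeap1-1, 12.93 in siKeap1-2 and 12.08 in siControl livers, and the array at its lower end had 12.73, 12.76 and 11.37 in the same 3 groups. Abcc3 was thus higher at the upper end in each group. For the bile pump Abcc2 the same arrays had 12.47, 12.40 and 12.20 at the upper end and 12.54, 12.60 and 12.12 at the lower end. Abcc2 was thus lower at the upper end in both silenced groups and higher at that end in siControl livers. The component of all probe sets, transporters included, was also used as a covariate, and the differences of Abcc3 were again 1.14 and 1.04. Their adjusted p were 1.5e-09 and 1.3e-08 by limma, although a covariate made from the same arrays makes such p smaller by construction. What the axis stands for is not given by the labels, and the relation was not tested.

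**Figure D2:**
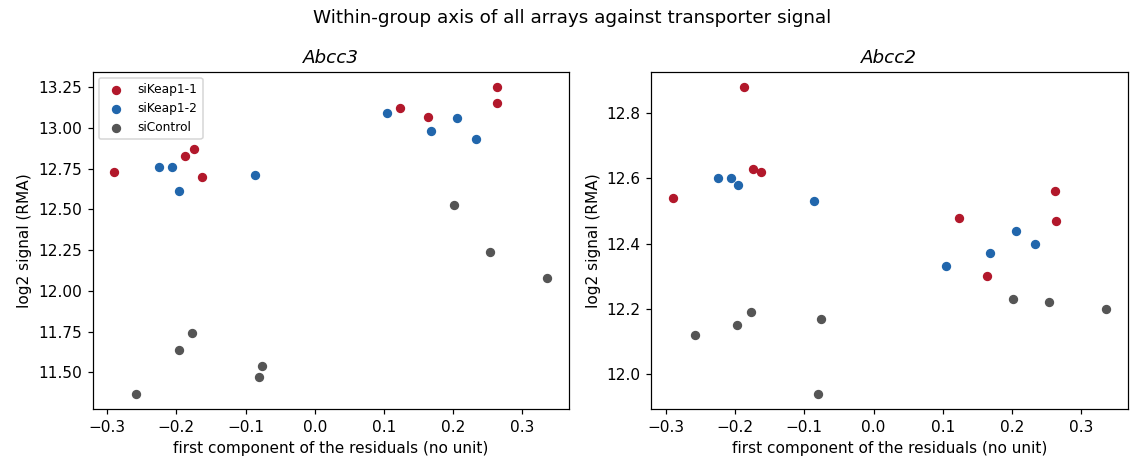
Log2 signal (vertical axis) of Abcc3 and Abcc2 on each of the 24 arrays against the main axis of variation inside the groups (horizontal axis, first principal component, no unit), with siKeap1-1, siKeap1-2 and siControl in separate colours. The array farthest right has a higher Abcc3 signal than the array farthest left in each group (13.15 against 12.73 in siKeap1-1, 12.93 against 12.76 in siKeap1-2 and 12.08 against 11.37 in siControl livers), while for Abcc2 it has a lower one in both silenced groups.

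Abcc1, a pump for glutathione and its conjugates that sits in the basolateral membrane of polarised cells, changed less and less evenly (chr16:14361453-14474878). Probe set 1452233_at had a lowest, median and highest log2 signal of 6.53, 7.49 and 7.67 in siKeap1-1 livers, 7.07, 7.49 and 7.85 in siKeap1-2 livers, and 6.61, 6.75 and 7.34 in siControl livers. The groups overlapped, through a low siKeap1-1 array and a high siControl array. It was higher by 0.53 (SE 0.14, adjusted p = 0.0151) with siKeap1-1 and by 0.64 (SE 0.14, adjusted p = 0.00615) with siKeap1-2. Both calls were lost, at differences no smaller, with the 18S covariate (0.57, adjusted p = 0.125, with siKeap1-1 and 0.67, adjusted p = 0.135, with siKeap1-2) and against siControl replicates 1 to 3 alone (0.66, adjusted p = 0.0546, and 0.77, adjusted p = 0.0593). Against siControl replicates 4 to 8 alone, the siKeap1-1 call was lost at a difference of 0.46 (adjusted p = 0.0854). The other Abcc1 probe set (1421378_s_at), dimmer than the array median on all 24 arrays, differed by 0.24 (adjusted p = 0.145) and 0.21 (adjusted p = 0.233), and was not called.

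The canalicular pumps Abcc2 and Abcg2 were both higher by less than 0.6 on the log2 scale. Abcc2 exports bilirubin glucuronides and glutathione conjugates into bile (chr19:43782308-43838332). Its probe set (1450109_s_at) had a lowest, median and highest log2 signal of 12.30, 12.55 and 12.88 in siKeap1-1 livers, 12.33, 12.48 and 12.60 in siKeap1-2 livers, and 11.94, 12.18 and 12.23 in siControl livers. All 16 arrays of the silenced groups lay above all 8 siControl arrays. The difference was 0.41 (SE 0.07, a fold of 1.33, adjusted p = 0.000361) with siKeap1-1 and 0.33 (SE 0.07, a fold of 1.26, adjusted p = 0.0045) with siKeap1-2. The siKeap1-2 call was lost with the 18S covariate (0.34, adjusted p = 0.125) and with siControl replicates 1 to 3 alone (0.38, adjusted p = 0.0951), at a difference no smaller.

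Abcg2, which exports urate, porphyrins and sulfate conjugates (chr6:58584491-58692451), behaved much like Abcc2 in size. Its probe set (1422906_at) had a lowest, median and highest log2 signal of 12.08, 12.25 and 12.49 in siKeap1-1 livers, 11.74, 12.20 and 12.44 in siKeap1-2 livers, and 11.37, 11.71 and 11.87 in siControl livers. All siKeap1-1 arrays and 7 of 8 siKeap1-2 arrays lay above the highest siControl array. The difference was 0.57 (SE 0.09, a fold of 1.49, adjusted p = 0.000194) with siKeap1-1 and 0.47 (SE 0.09, a fold of 1.38, adjusted p = 0.00247) with siKeap1-2. With siKeap1-2, the 18S covariate gave 0.46 (adjusted p = 0.109) and siControl replicates 1 to 3 alone gave 0.40 (adjusted p = 0.172).

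**Figure D3:**
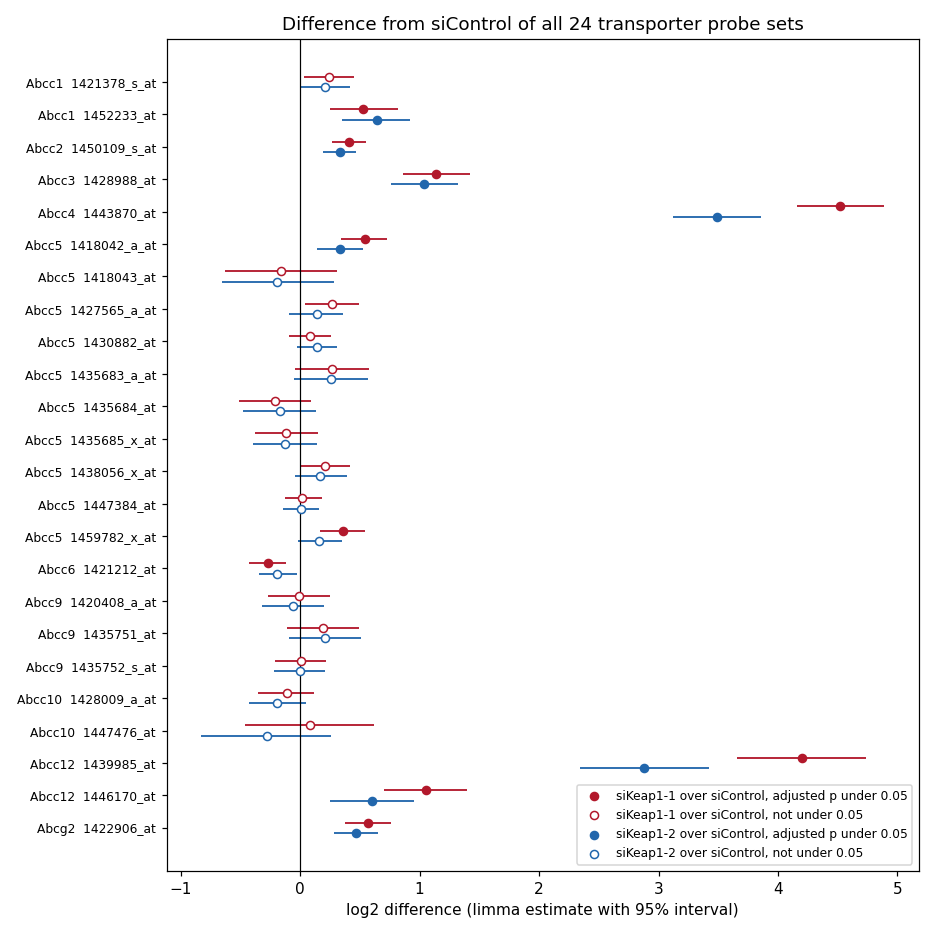
Log2 difference from siControl (horizontal axis, with its 95% interval from limma) of all 24 transporter probe sets, with siKeap1-1 above siKeap1-2 in each row; filled points have an adjusted p under 0.05. Abcc4 and a probe set of Abcc12 stand at 2.88 to 4.52, Abcc3 at 1.04 and 1.14, and the other called probe sets between -0.27 and 1.05.

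Abcc5, a pump for cyclic nucleotides, had the most probe sets and no shared direction among them (chr16:20331303-20426428). Of its 10 probe sets, 7 had a positive and 3 a negative difference with each siRNA, over a range of -0.21 to 0.54 with siKeap1-1 and -0.19 to 0.33 with siKeap1-2. The brightest (1435684_at) had a lowest, median and highest log2 signal of 9.50, 10.03 and 10.73 in siKeap1-1 livers, 9.56, 10.00 and 10.61 in siKeap1-2 livers, and 9.95, 10.23 and 10.51 in siControl livers, and was not called (-0.21, adjusted p = 0.434, and -0.17, adjusted p = 0.566). The files do not say which transcripts of the gene each probe set reads.

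Of the 10, 2 were called with siKeap1-1 and 1 with siKeap1-2. Probe set 1418042_a_at had a lowest, median and highest log2 signal of 6.56, 6.86 and 7.31 in siKeap1-1 livers, 6.44, 6.63 and 7.06 in siKeap1-2 livers, and 6.21, 6.31 and 6.55 in siControl livers. It was higher by 0.54 (SE 0.09, adjusted p = 0.000634) with siKeap1-1, whose arrays all lay above siControl, and by 0.33 (SE 0.09, adjusted p = 0.0363) with siKeap1-2. The siKeap1-2 call was lost, at differences of about the same size, with median centring (0.32, adjusted p = 0.0597), the 18S covariate (0.40, adjusted p = 0.22) and siControl replicates 4 to 8 alone (0.34, adjusted p = 0.0629) or 1 to 3 alone (0.32, adjusted p = 0.374). It was also lost without any of siKeap1-2 replicates 5, 6 and 7 or siControl replicates 1, 4, 5, 6 and 8 (adjusted p = 0.0503 to 0.073, at differences of 0.28 to 0.34). Probe set 1459782_x_at, dimmer than the array median throughout, was higher by 0.36 (SE 0.09, adjusted p = 0.0132) with siKeap1-1, a call lost with siControl replicates 1 to 3 alone (0.31, adjusted p = 0.195), and differed by 0.16 (adjusted p = 0.318) with siKeap1-2. Probe set 1427565_a_at missed the threshold with siKeap1-1 (0.27, adjusted p = 0.131) and passed it without siKeap1-1 replicate 7 (0.33, adjusted p = 0.0497).

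Abcc6 was the only one of the 10 genes that was called lower. This basolateral liver pump governs ATP release, and its loss causes ectopic mineralisation in humans and mice (chr7:45974110-46030491). Its probe set (1421212_at) had a lowest, median and highest log2 signal of 9.64, 9.78 and 10.02 in siKeap1-1 livers, 9.65, 9.88 and 10.00 in siKeap1-2 livers, and 9.71, 10.09 and 10.24 in siControl livers, and the groups overlapped. The difference was -0.27 (SE 0.07, adjusted p = 0.0184) with siKeap1-1 and -0.19 (SE 0.07, adjusted p = 0.14) with siKeap1-2. Inside siControl, the 5 arrays of low 18S signal read 10.09 to 10.24 and the other 3 read 9.71 to 10.06, with no overlap. With the 18S covariate the siKeap1-1 difference was -0.05 (adjusted p = 0.833), and with siControl replicates 1 to 3 alone it was -0.10 (adjusted p = 0.632). With siControl replicates 4 to 8 alone, or without siControl replicate 2, Abcc6 was called lower with siKeap1-2 as well (-0.29, adjusted p = 0.0094, and -0.24, adjusted p = 0.0304).

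**Figure D4:**
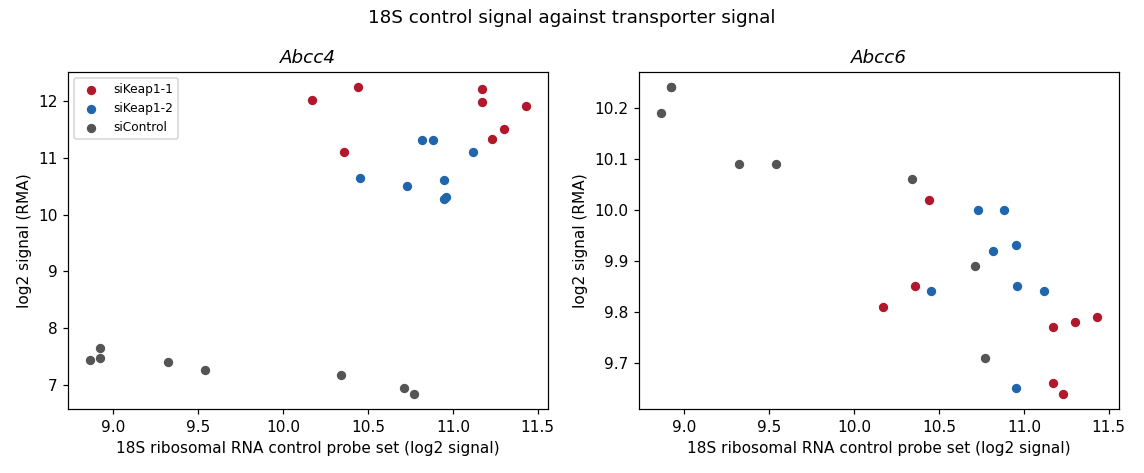
Log2 signal (vertical axis) of Abcc4 and Abcc6 on each of the 24 arrays against the log2 signal of the 18S ribosomal RNA control probe set (horizontal axis), with siKeap1-1, siKeap1-2 and siControl in separate colours. The 5 siControl arrays with 18S signals of 8.86 to 9.54 have the highest Abcc6 signals (10.09 to 10.24). Every Abcc4 signal of the silenced groups (10.28 to 12.25) stands above every siControl signal (6.84 to 7.65). No silenced array has an 18S signal below 10.17.

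Abcc9 and Abcc10 were not called with either siRNA. Abcc9 is no pump: it encodes the sulfonylurea receptor subunit of potassium channels that close with ATP, pairs with Kcnj8 and is found in vascular smooth muscle and pericytes (chr6:142587862-142702766). Its brightest probe set (1435752_s_at) had a lowest, median and highest log2 signal of 9.40, 9.77 and 10.08 in siKeap1-1 livers, 9.36, 9.78 and 9.97 in siKeap1-2 livers, and 9.47, 9.73 and 10.11 in siControl livers. The groups covered the same range, and the difference was 0.01 (95% interval -0.21 to 0.22) with siKeap1-1 and 0.00 (interval -0.22 to 0.21) with siKeap1-2. Of the other Abcc9 probe sets, 1435751_at differed by 0.19 with siKeap1-1 and 0.21 with siKeap1-2, and 1420408_a_at by -0.01 and -0.06. Kcnj8 was not called either (0.18, adjusted p = 0.482, and 0.43, adjusted p = 0.0602), nor was any other of the 14 measured markers of stellate cells, pericytes and smooth muscle (2 had an unadjusted p under 0.05 with each siRNA). The arrays' mean over that list lay between 8.59 and 9.41 in siKeap1-1, 8.74 and 9.39 in siKeap1-2, and 8.56 and 9.11 in siControl livers. Among all genes, 9.49% were called with siKeap1-1 and 6.6% with siKeap1-2.

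Abcc10, a pump for lipophilic compounds, had wide intervals at its brighter probe set (chr17:46303220-46328031). Probe set 1447476_at had a lowest, median and highest log2 signal of 6.36, 6.93 and 7.87 in siKeap1-1 livers, 6.24, 6.83 and 6.93 in siKeap1-2 livers, and 6.06, 6.82 and 8.09 in siControl livers. The difference was 0.08 (interval -0.46 to 0.62) with siKeap1-1 and -0.28 (interval -0.83 to 0.26) with siKeap1-2, so that changes of that size in either direction could not be detected. The other probe set (1428009_a_at) differed by -0.11 (adjusted p = 0.612) and -0.19 (adjusted p = 0.376).

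Set against each other, the siRNAs differed at the pair of genes with the largest changes. Of the 24 probe sets, 2 were called, both higher in siKeap1-1 than in siKeap1-2 livers, where 0.162% of all probe sets were called (0.0799% higher). By gene, 2 of 10 were called, where 0.242% of all genes were (0.121% higher). Abcc4 was higher in siKeap1-1 livers by 1.04 (interval 0.67 to 1.41, a fold of 2.05, limma adjusted p = 0.0087), and 7 of 8 siKeap1-1 arrays lay above the highest siKeap1-2 array. Abcc12 (1439985_at) was higher by 1.32 (interval 0.78 to 1.86, a fold of 2.5, adjusted p = 0.0301), again with 7 of 8 arrays above. Abcc4 kept this call in every alternative run (adjusted p = 0.00352 to 0.0403). The Abcc12 call was lost when siControl replicates 4 to 8 alone were kept (adjusted p = 0.0521) and without any of siKeap1-1 replicates 1, 2, 3, 6, 7 and 8 or siKeap1-2 replicates 2 to 6 (0.0501 to 0.0766), at differences of 1.24 to 1.35.

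No other transporter probe set was called between the siRNAs, while 5 of the 24, the called ones included, had an unadjusted p under 0.05 by limma. The dim Abcc12 probe set (1446170_at) differed by 0.45 (interval 0.10 to 0.80, adjusted p = 0.378). For Abcc5, 1418042_a_at differed by 0.20 (interval 0.01 to 0.40, adjusted p = 0.508) and 1459782_x_at by 0.19 (interval 0.01 to 0.38, adjusted p = 0.52). The difference was 0.10 for Abcc3 (interval -0.18 to 0.38, adjusted p = 0.872), 0.08 for Abcc2 (interval -0.06 to 0.22), 0.10 for Abcg2 (interval -0.08 to 0.29), -0.11 for Abcc1 (interval -0.39 to 0.18) and -0.09 for Abcc6 (interval -0.24 to 0.06). The upper limits for Abcc3, Abcc2 and Abcg2 lie below the lower limit of 0.67 for Abcc4.

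The genes nearest to the 3 most changed transporters were sought by the root mean square difference of their values, each relative to its siControl mean, over the 24 arrays. This is a description, since these values include the group differences. Nearest to Abcc4 was Abcc12 (0.77), followed by Tafa2 (0.97), Gpx2 (1.00), Usp50 (1.18) and Cbr3 (1.31). Nearest to Abcc12 were Abcc4 (0.77), Tafa2 (0.93), Gpx2 (0.95), Dppa2 (1.12) and Tinag (1.17). Gpx2, an intestinal type glutathione peroxidase, and Cbr3, a carbonyl reductase, are known Nrf2 targets. Nearest to Abcc3 were Ces1g (0.22), a carboxylesterase, Slc48a1 (0.22), a heme transporter, Pir (0.23), Tmem62 (0.24) and Wdpcp (0.30). The distances depend on the size of the group differences, so those of Abcc3 and Abcc4 are not compared.

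Other ABC transporters were counted in the same way. Their list also held Abcc8 and Cftr, members of the ABCC family that are not among the genes followed here. Neither was called by limma. Abcc8 differed by 0.01 with siKeap1-1 and -0.02 with siKeap1-2 (adjusted p = 0.97 and 0.95), and Cftr by 0.13 and -0.20 (adjusted p = 0.8 and 0.68). Both were named after their values had been seen. Of 36 measured genes of 38 listed, 2 were higher and 3 lower with siKeap1-1, where 4.82% of all genes were higher and 4.67% lower. The same 5 genes were called in the same directions with siKeap1-2, where 2.85% of all genes were higher and 3.75% lower (limma; the comparisons share their controls). Abcg5 and Abcg8, which together export sterols into bile, were higher: Abcg5 by 0.46 with siKeap1-1 and 0.43 with siKeap1-2, Abcg8 by 0.59 and 0.54. Abcd2, a peroxisomal fatty acid transporter, was lower by -2.01 and -1.42, Abca3 by -0.54 and -0.49, and Abca1, the cholesterol exporter, by -0.24 and -0.25. Abcg5 and Abca1 were named after their values had been seen. The bile salt pump Abcb11 (-0.25 with either siRNA, adjusted p = 0.29 and 0.311) and the phospholipid pump Abcb4 (-0.05 and 0.04, adjusted p = 0.864 and 0.896) were not called, nor were the drug pumps Abcb1a (0.42 and 0.21, adjusted p = 0.239 and 0.64) and Abcb1b (0.56 and 0.14, adjusted p = 0.0541 and 0.716); these 4 genes too were named after their values had been seen. Over these 36 genes the median difference was -0.04 with siKeap1-1 and -0.05 with siKeap1-2, beside 0.01 and -0.01 over all genes.

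The calls in the next 2 lists stand beside 9.49% of all genes called with siKeap1-1 and 6.6% with siKeap1-2. Between the siRNAs 0.242% of all genes were called. Among solute carriers for organic anions, cations and bile acids, 23 of 28 listed genes were measured. With siKeap1-1, 2 were higher and 1 lower, and with siKeap1-2, 2 were higher and 0 lower. The carnitine and ergothioneine carrier Slc22a4 (0.71 with siKeap1-1 and 0.47 with siKeap1-2) and Slc22a18 (0.64 and 0.58) were higher with both siRNAs. Slco2a1, a prostaglandin carrier, was lower with siKeap1-1 (-0.40, adjusted p = 0.00335), was not called with siKeap1-2 (0.04, adjusted p = 0.851), and differed between the siRNAs (-0.44, adjusted p = 0.0248). Of 15 anchors and sorting proteins of apical transporters, only Pdzk1 was called, lower with siKeap1-1 (-0.31, adjusted p = 0.00791); with siKeap1-2 it differed by -0.23 (adjusted p = 0.0549).

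Of 15 measured nuclear receptors and sensors of transporter genes, Keap1 and Nfe2l2 were lower with both siRNAs, Nfe2l2 by -0.63 (adjusted p = 4.14e-05) with siKeap1-1 and -0.49 (adjusted p = 0.00117) with siKeap1-2. The share of all genes called lower was 4.67% with siKeap1-1 and 3.75% with siKeap1-2. With siKeap1-2 the xenobiotic receptor Nr1i2 (-0.32, adjusted p = 0.0378) and the bile acid receptor Nr1h4 (-0.24, adjusted p = 0.0392) were lower as well; with siKeap1-1 they differed by -0.21 (adjusted p = 0.156) and -0.18 (adjusted p = 0.113), and Nr1h4 was named after its values had been seen. The difference between the siRNAs was 0.10 (adjusted p = 0.778) for Nr1i2 and 0.06 (adjusted p = 0.842) for Nr1h4. Apart from Keap1, no gene of the lists above or of the marker lists below was followed with the 18S covariate. Over all probe sets that covariate left 303 calls with siKeap1-2 in place of 2748, and 57 lower calls in place of 1331. With siKeap1-1 it left 1324 calls in place of 4049. Of 27 measured canonical Nrf2 targets outside the transporters, 21 were higher and 0 lower with siKeap1-1, where 4.82% of all genes were higher and 4.67% lower. With siKeap1-2, 18 were higher and 0 lower, where 2.85% of all genes were higher and 3.75% lower. The largest were Cbr3 (5.90 and 5.12), Gpx2 (2.96 and 3.42) and Nqo1 (2.22 and 1.91), and 0 of the 27 were called between the siRNAs by limma (10 had an unadjusted p under 0.05). Between the siRNAs 0.242% of all genes were called.

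Few markers of liver cell types were called with either siRNA. The calls below stand beside 9.49% of all genes called with siKeap1-1 and 6.6% with siKeap1-2. None of the 10 measured hepatocyte markers was called by limma (2 had an unadjusted p under 0.05 with siKeap1-1 and 1 with siKeap1-2), and their mean over an array lay between 14.05 and 14.15 in siKeap1-1, 14.11 and 14.20 in siKeap1-2, and 14.17 and 14.22 in siControl livers, so that all siKeap1-1 arrays stood slightly below all siControl arrays. Of 10 cholangiocyte markers, Sox9 alone was called, higher by 0.87 with siKeap1-1 and 0.96 with siKeap1-2, and the list mean lay between 7.35 and 7.88 in siKeap1-1, 7.16 and 7.62 in siKeap1-2, and 7.32 and 7.81 in siControl livers. Of 12 Kupffer cell and macrophage markers, Cd163 (-1.87), Timd4 (-1.52) and Vsig4 (-0.60) were lower with siKeap1-1, and with siKeap1-2 Timd4 was lower (-1.16) and Marco was higher (1.49). That list's mean lay between 9.75 and 10.65 in siKeap1-1, 9.89 and 11.06 in siKeap1-2, and 10.16 and 11.08 in siControl livers, so the groups overlapped. Cdh5 (-0.32 with siKeap1-2) was the only call among 12 endothelial markers, and the 10 lymphocyte and 6 erythroid markers gave none with either siRNA (at most 1 of each list had an unadjusted p under 0.05). The part of these cells in the transporter signals was not tested.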

How the data were processed

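Liver gene expression was measured on Affymetrix mouse whole genome arrays (1 per mouse, n = 8 per siRNA group). The deposited values are log2 signals, which the authors made with RMA (version not given in the sources used here): background correction, a common distribution for all arrays and a summary of the probes of each probe set. Of 45101 probe sets, 64 controls were left out and 45037 were tested, without a filter on low signals; the platform annotation names 1 gene for 34945, several for 932 and none for 9160. RMA keeps no call of whether a probe set is above background, and the number of arrays limits the precision.

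Groups were taken from the labels, which number the replicates 1 to 8. All 3 groups entered 1 linear model per probe set in limma (version 3.58.1, under R 4.3.3), with lmFit, contrasts and eBayes, and p-values were adjusted by Benjamini-Hochberg over all tested probe sets; called means an adjusted p under 0.05. The study's 2-factor model with feeding was not fitted, since the labels do not give the feeding state. Each gene was taken by its brightest probe set, the highest in mean over all arrays, with the adjusted p of that probe set. For Keap1, an exact permutation test over the 12870 ways to divide 16 arrays into 8 and 8 was added. P-values measure the spread between these mice.

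The transporters and gene lists were chosen with earlier results of these data known. Named are all transporters, up to 3 genes per list and comparison with the largest change among those called, the 5 genes nearest to Abcc3, Abcc4 and Abcc12, and genes marked as named after their values were seen. Promoters were read from a RefSeq table. Alternatives were another normalization or centring, a filter on dim probe sets, other moderation, array weights, only the compared groups, a block for the replicate number, a covariate (the main axis of variation inside groups, or the 18S signal), subsets of siControl arrays, each gene's probe sets averaged, a threshold of a fold over 2 with an unadjusted p under 0.01, and leaving out each of the 24 arrays in turn. Counts by gene and Keap1 under these settings were added after seeing the data. The script was tested on simulated data. Python 3.11.15 and matplotlib 3.10.9 made the figures.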

Additional observations from a re-analysis of the deposited data

Results flagged for a closer look

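In 4 of the 72 sets of 8 arrays (24 probe sets in 3 groups), a single array stood farther from the rest than Dixon's 95% critical value allows; chance alone marks about 1 set in 20. For Abcc1 (1452233_at), siKeap1-1 replicate 1 had a log2 signal of 6.53, with the other 7 arrays between 7.31 and 7.67. For the same probe set, siControl replicate 4 had 7.34, with the others between 6.61 and 6.95. For Abcc2 (1450109_s_at), siControl replicate 3 had 11.94, with the others between 12.12 and 12.23. For Abcc5 (1438056_x_at), siKeap1-1 replicate 2 had 6.81, with the others between 5.95 and 6.22. The causes were not tested, and leaving out any of these arrays changed no call of Abcc1 or Abcc2 or of this Abcc5 probe set.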

How the results depend on the processing

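By probe set, the number of transporters called was 10 with siKeap1-1, 8 with siKeap1-2 and 2 when the siRNAs were compared, and leaving out 1 array at a time gave 10 to 11, 6 to 8 and 1 to 2. By gene the numbers were 7, 6 and 2, and leaving out 1 array at a time gave 7 in every case with siKeap1-1, 6 to 7 with siKeap1-2 and 1 to 2 between the siRNAs; the loss of 1 call between the siRNAs is that of Abcc12, for the arrays named beside it in the report. A threshold of a fold over 2 with an unadjusted p under 0.01 gave 4 and 3 probe sets (3 and 3 genes) with siKeap1-1 and siKeap1-2, where 0.617% and 0.557% of all probe sets passed. With siKeap1-2, the 18S covariate left 4 probe sets (3 genes) and siControl replicates 1 to 3 alone, with fewer controls, left 3 probe sets (3 genes); between the siRNAs, siControl replicates 4 to 8 alone left 1 probe set (1 gene). Over all probe sets, the 18S covariate left 1324 calls (53.2% higher) with siKeap1-1 and 303 (81.2% higher) with siKeap1-2, and siControl replicates 1 to 3 alone left 1540 (54.8% higher) and 358 (81% higher), in place of 4049 (50.2% higher) and 2748 (51.6% higher); the cause was not tested.

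The replicate numbers did not pair the mice: residuals of same-numbered arrays correlated at r of -0.171 to 0.28 over 24 pairs, 9 of them over 0.1, and 4 of 24 arrays correlated best with their own number. With the replicate number as a block, limma called 10 probe sets with siKeap1-1, 7 with siKeap1-2 and 2 for siKeap1-1 over siKeap1-2 (7, 6 and 2 genes), and the 1 call lost was that of the dim Abcc12 probe set with siKeap1-2. For single probe sets, 2473 of 2526 values under an alternative kept their side of the threshold, 50 lost a call, 3 gained it and 0 turned round while called; 86 of the 2473, all of them not called, had the other sign. Keap1 kept both calls in all 36 settings (-2.5 to -1.27 with siKeap1-1 and -1.72 to -0.9 with siKeap1-2). Of the 24 probe sets, 5 were dimmer than the array median on all arrays, where differences are least reliable.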
